A study of Mus musculus with 8 samples.

Results

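Histones are the proteins that DNA is wound around in the nucleus. H2A, H2B, H3 and H4 build the core of the nucleosome, and H1 binds the DNA between cores. The replication-dependent histone genes supply these proteins while DNA is copied in S phase, and their mRNAs end in a stem-loop, bound by the protein SLBP, in place of a poly(A) tail. Members of this family were chosen as the gene symbols of the deposited count tables that begin with Hist1h, Hist2h, Hist3h or Hist4h, together with H2ac15. As written, this choice found 10 of 55291 symbols, namely the H2A genes H2ac15, Hist1h2al, Hist1h2an, Hist1h2ao and Hist1h2ap, the H2B genes Hist1h2bp, Hist1h2bq and Hist1h2br, and the H4 genes Hist1h4m and Hist1h4n. It found no H1 or H3 gene, because the tables list the rest of the family under newer symbols. The older names of RefSeq, matched to GENCODE M21, added 60 symbols, so that the family described here has 70 members of 55291 symbols. These are 6 H1, 20 H2A, 19 H2B, 12 H3 and 13 H4 genes, and 3 of them (Hist1h2al, H2ac14 and H2bu1-ps) are annotated as pseudogenes. The expression filter of edgeR kept 67 of the 70. H2aw, with 0 to 4 counts in each library, did not pass it, and H2ac18 and H3c14 had 0 counts in all 8 libraries.

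The data are RNA counts per gene from 8 libraries of mouse embryonic stem cells. The cells came from a pair of edited lines, DHX35-dTAG and GPATCH1-dTAG, in which the named protein carries the FKBP12 F36V degron, so that dTAG-13 directs it to degradation. Each line received 200 nM dTAG-13 or the solvent DMSO for 4 h, and each of the 4 groups has 2 libraries. The labels name the cells E14, whereas the growth protocol speaks of R1 cells. The lines were grown from picked colonies, the labels do not name the clones, and none of the 8 libraries comes from untagged cells. Ribosomal RNA was depleted, human DLD-1 RNA was added as a spike-in, and a stranded kit was used, so that mRNAs without a poly(A) tail were not removed by a selection for it. All 8 values of a gene are given below in the order DHX35-dTAG in DMSO (replicates 1 and 2), DHX35-dTAG in dTAG-13 (1 and 2), GPATCH1-dTAG in DMSO (1 and 2) and GPATCH1-dTAG in dTAG-13 (1 and 2). The libraries held 12765765, 14173639, 12014203, 13197149, 14663300, 13353642, 14994173 and 13149257 counts. The histone family took 0.744%, 0.618%, 0.588%, 0.498%, 0.574%, 0.459%, 0.60% and 0.581% of them.

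Other shares of the counts varied more. A pair of ribosomal genes, Gm23935 and CT010467.1, took 3.15%, 1.54%, 12%, 20.2%, 4.23%, 20.9%, 1.27% and 2.02%, and the 37 mitochondrial genes took 0.893% in replicate 1 of DHX35-dTAG in DMSO and 1.27% to 1.88% in the other 7 libraries. Small nuclear and nucleolar RNA genes took 0.187% in that same library and 0.0483% to 0.0690% in the others. Counting error alone gives 95% Wilson intervals whose width is at most 0.0436 percentage points for any of these shares. Replicate 1 of DHX35-dTAG in DMSO thus stood apart, with a mean correlation of 0.976 to the rest, where the others had 0.988 to 0.99. The main histone values that rest on it are therefore given with and without it, while mean levels and some single-gene differences are given only with it. Levels are in CPM, counts scaled to a common library size with TMM factors, and differences are log2 fold changes of edgeR with p-values of its quasi-likelihood test, adjusted by Benjamini-Hochberg over 16371 genes (the main fit, with all 8 libraries). The p-values reflect the spread between libraries, which may be technical, since the labels do not say whether replicates came from separate cultures. In bulk RNA, fewer cells in S phase and less histone RNA per cell cannot be told apart.

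The mRNAs of both degron targets were examined first. Dhx35, a putative RNA helicase, was at 72.3, 80.4, 84.8, 79.5, 58.1, 58.4, 59.3 and 64.9 CPM. Its response to dTAG-13 in its own line was 0.11 (standard error 0.09, adjusted p = 0.742). Gpatch1, a protein with a G-patch domain, was at 25.6, 23.4, 23.2, 23.7, 7.31, 6.90, 7.06 and 7.20 CPM, lower in all 4 libraries of the GPATCH1-dTAG line than in the other 4. This difference between the lines was −1.78 (standard error 0.12, adjusted p = 0.000643) in DMSO and −1.72 (standard error 0.12, adjusted p = 0.000885) in dTAG-13. Whether this comes with the tag or with the clone cannot be told apart here. The marker lists showed pluripotent cells, as the 10 pluripotency genes summed to between 4294 and 5127 CPM, with Pou5f1 at a mean of 797 CPM. Of other cells, the 6 feeder markers summed to 10.7 to 15.0 CPM, with Pdgfrb the most abundant at 9.51 CPM and Postn at 0 in all libraries. Endoderm markers (4 genes) summed to 2.57 to 4.39 CPM, led by Gata4 at 1.47 CPM, and mesoderm markers (3 genes) to 18.9 to 25.7 CPM, led by Eomes at 19.2 CPM. Neural markers (3 genes) summed to 14 to 19.4 CPM, led by Sox1 at 7.49 CPM, markers of the 2-cell-like state (3 genes) to 2.81 to 5.21 CPM, led by Zscan4d at 2.30 CPM, and germ line markers (4 genes) to 13.5 to 20.4 CPM, led by Sycp3 at 9.54 CPM with Tnp1 at 0.

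Replicate 1 of DHX35-dTAG in DMSO also stood apart in its histone mRNAs, with all H1 genes and most H2B genes shifted in 1 direction and the other types in both. It held the highest or lowest value of the 8 libraries for 53 of the 67 members tested (79.1%), 25 highest and 28 lowest, whereas this was so for 59.8% of all genes. Each other library was extreme for 10.4% to 28.4% of the members. All 6 linker histone genes were highest in it, while 13 of 19 H2B genes were lowest in it and 3 highest. The median log2 ratio of its CPM to the median of the other 7 libraries was 0.78 for H1, −0.39 for H2A, −0.81 for H2B, −0.08 for H3 and 0.14 for H4, against 0.00 for all genes tested. H1f1 was at 829 CPM in this library and at 356 to 414 CPM in the other 7, and H1f2 at 981 CPM against 391.6 to 499. H1f5 was at 469 CPM, against 268 to 295 in the others. Opposite to these, Hist1h4n was at 13.1 CPM against 73.3 to 103, and H3c10 at 8.57 CPM against 48.3 to 57.3.

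Genes of the same type went both ways in this library. Among H2A genes, H2ac10 was at 19.7 CPM against 65.6 to 74.0 in the other 7 libraries, while the pseudogene Hist1h2al was at 271 CPM against 127 to 164. Of the H2B genes, H2bc13 was at 23.9 CPM against 69.2 to 78.1 and H2bc6 at 26.6 CPM against 63.8 to 119. The H4 genes H4c4 and H4c8 were highest there, at 417 CPM against 221 to 276 and at 306 CPM against 135 to 231. Outside chromosome 13, H4c14 on chromosome 3 was at 205 CPM against 102 to 124, whereas its neighbour H3c13 was at 32.4 CPM against 53.9 to 67.3. The genes in these last sentences were chosen after their values were seen. The part of library composition in this pattern was not tested; the same library had the highest share of small nuclear and nucleolar RNA and the lowest share of mitochondrial RNA.

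**Figure D1:**
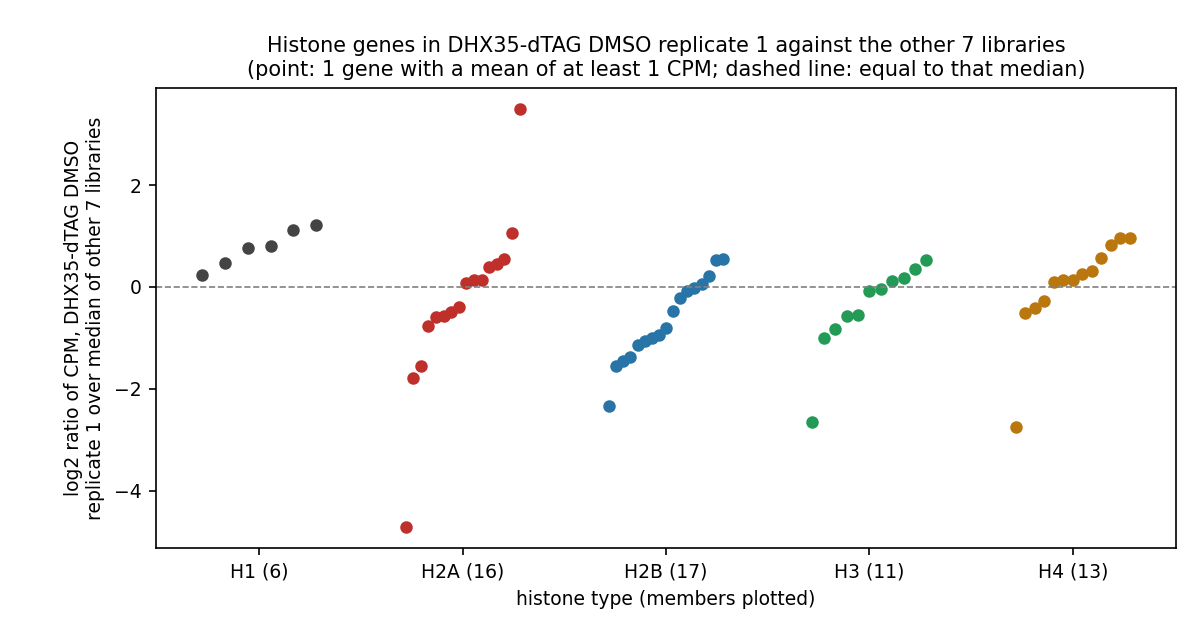
Each point is 1 histone gene with a mean of at least 1 CPM, placed by the log2 ratio of its CPM in replicate 1 of DHX35-dTAG in DMSO to its median in the other 7 libraries, by type. The H2A genes at the far ends are Hist1h2ao and H2ac13, whose levels also differ between the lines.

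By type, the linker histone genes took 30.3% of the summed family CPM, H2A 9.12%, H2B 15.0%, H3 18.7% and H4 26.8%. The sum over all 70 members was 7018, 5631, 6039, 5817, 5447, 5418, 5574 and 5499 CPM, highest in replicate 1 of DHX35-dTAG in DMSO. H1 summed to 2879, 1608, 1779.5, 1664, 1513, 1519, 1609 and 1490.3 CPM, so that the first of these libraries was far above the rest. H2A summed to 639.6, 484, 536, 496, 518, 522, 512 and 530.2 CPM. H2B summed to 596, 934, 991, 946, 884, 870.0, 861 and 896 CPM, lowest in the library in which H1 was highest. H3 was the most even, at 1004, 1046, 1113, 1085, 1095, 1104, 1119.6 and 1134 CPM. H4 summed to 1899.8, 1560.1, 1619, 1626, 1437, 1403, 1472 and 1449 CPM, under this scaling lower in all 4 libraries of the GPATCH1-dTAG line than in the 4 of the other line, which plain CPM does not show. As a share of the family, H1 was 41.0% in replicate 1 of DHX35-dTAG in DMSO and 27.1% to 29.5% elsewhere, and H2B was 8.49% there and 15.4% to 16.6% elsewhere.

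**Figure D2:**
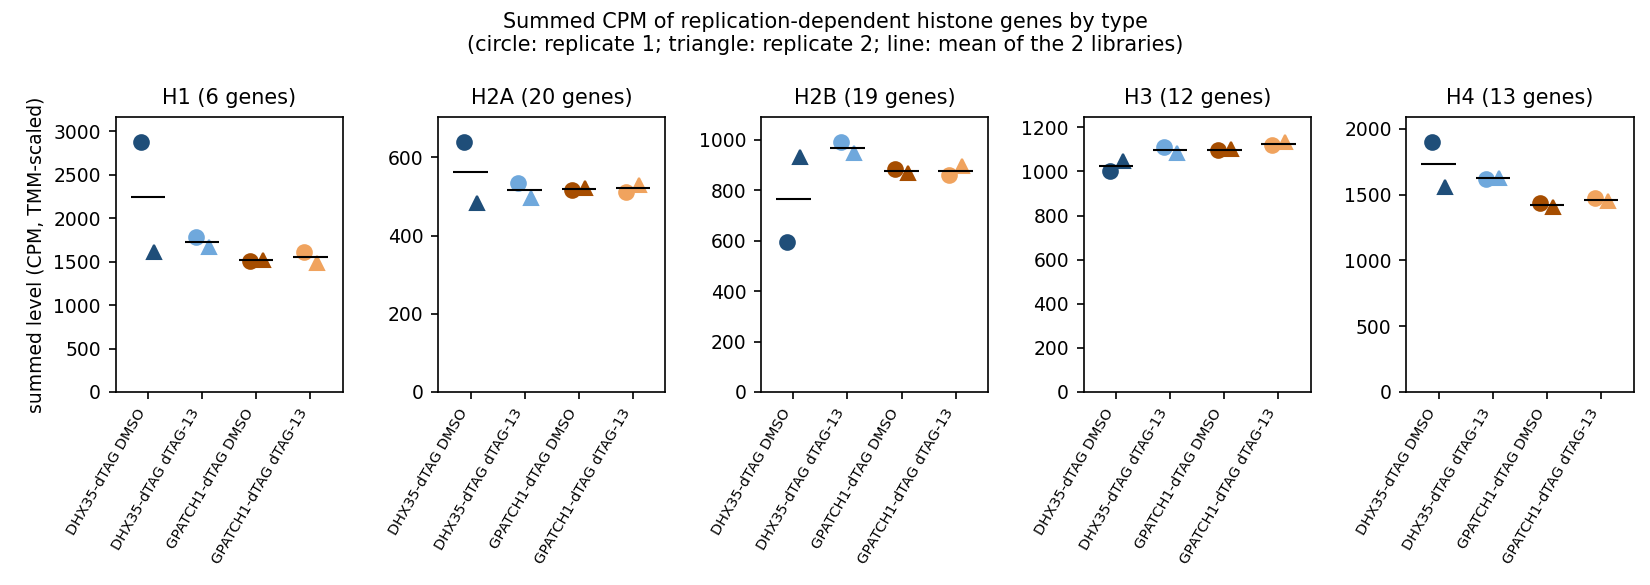
Summed CPM of the histone genes of each type in each library, with circles for replicate 1, triangles for replicate 2 and lines for the means. The lower H4 sum of the GPATCH1-dTAG line holds under TMM scaling and does not hold on plain CPM.

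Levels within a type spread widely. Per kilobase of annotated transcript, H1f1 led the linker histones with a mean of 595 CPM/kb, before H1f5 with 409 and H1f2 with 319, while H1f6, known as the testis form, was at 2.32 CPM/kb. The highest H2A genes were Hist1h2al (447 CPM/kb), H2ac10 (157) and H2ac15 (134). Hist1h2al is annotated as a pseudogene, and 18.3% of its 100-base stretches also occur in the model Gm20634. H2B was led by H2bc18 (259 CPM/kb), H2bc12 (223) and H2bc13 (173), and H3 by H3c6 (356), H3c8 (227) and H3c11 (214). H4c1 (489 CPM/kb), H4c6 (443) and H4c8 (411) led H4. The place of H4c8 rests on replicate 1 of DHX35-dTAG in DMSO, where it was at 306 CPM against 135 to 231 in the other libraries. H2bc1, known as the testis form of H2B, was at 2.25 to 3.69 CPM and H2ac1, known as the testis form of H2A, at 1.54 to 2.97 CPM over the 8 libraries.

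The leading genes of a type did not all vary alike over the libraries. H1f1 was at 829, 356, 394, 396, 377, 379.8, 414 and 379 CPM, and H1f5 at 469, 270.2, 295, 287, 276, 278, 287 and 268 CPM, so that both stood out in the first library alone. Of the H2B genes, H2bc18 was at 55.1, 105, 91.0, 105, 111, 107, 102 and 113 CPM, lowest in that library. H2bc12 was also lowest there, but only just below the 103 to 116 CPM of the other 7 libraries. H3c6 was at 321, 263, 274, 273, 297, 308, 325 and 321 CPM, with the first library among the higher ones, and H3c11 at 63.1, 98.5, 104, 101, 82.4, 81.6, 81.0 and 92.8 CPM, with the first library lowest. The H4 genes H4c1 (274, 264, 292, 278, 246, 256, 245 and 256 CPM) and H4c6 (186, 179, 187, 177, 167, 158, 170.2 and 163 CPM) were even within each line and lower in the GPATCH1-dTAG line under TMM scaling. Their differences between the lines did not pass the test, at −0.10 (standard error 0.08, adjusted p = 0.559) and −0.17 (standard error 0.08, adjusted p = 0.403) in DMSO. Of the 3 leading genes of each type, H2ac15 was the one that passed in the main fit, between the lines in DMSO, while DESeq2 called H2ac15 and H4c8, and edgeR without an expression filter called more of them.

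The members share a position and an RNA end that the choice did not use. On GRCm38, 56 of the 70 lie on chromosome 13, of which 24 fall between 21715763 and 22043676, 31 between 23531050 and 23934851, and Hist1h2al alone at 51202727. A further 10 lie on chromosome 3 from 96219865 to 96270132, 3 on chromosome 11 and 1, H4f16, on chromosome 6. A single exon makes up the gene model of 65 of the 70. A histone stem-loop was searched in the GENCODE M21 transcripts, as 16 bases with a 6-base stem that starts with GG and a 4-base loop that starts with TT. In members the search covered bases after the stop codon, and members with more than 1 exon were not scored. It was present in 42 members, which is 42 of the 46 whose model runs at least 40 bases past the stop codon. In other genes the whole of each transcript was searched, and 141 of 55271 had it (0.255%). The shares thus come from unlike searches. By type it was in 4 of 5 H1, 11 of 11 H2A, 8 of 9 H2B, 8 of 9 H3 and 11 of 12 H4 models of that length. For 13 members the model ends at the stop codon, so the search says nothing of them. Of 6 forms found, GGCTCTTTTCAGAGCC was the most common (24 members), followed by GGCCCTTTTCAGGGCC (7) and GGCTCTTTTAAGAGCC (6). One member of each type is printed below, because this end is what sets these mRNAs apart from other mRNAs. Capitals mark the stem-loop, written 5′ to 3′ on the strand of the gene, on GRCm38.
H1f4, chr13:23621777-23621802, minus strand: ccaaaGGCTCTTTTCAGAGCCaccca
Hist1h2ao, chr13:21810893-21810918, plus strand: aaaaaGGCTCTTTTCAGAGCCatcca
H2bc9, chr13:23542923-23542948, minus strand: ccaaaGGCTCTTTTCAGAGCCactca
H3c6, chr13:23561898-23561923, minus strand: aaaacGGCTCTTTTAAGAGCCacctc
H4c8, chr13:23531453-23531478, plus strand: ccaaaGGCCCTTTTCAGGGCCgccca

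Near-identical copies limit how far reads can be assigned to single members. Over the annotated transcripts, a median of 65.5% of a member's 100-base stretches occurred in no other gene model, and this was 99.6% for H1, 35.5% for H2A, 65.3% for H2B, 50.3% for H3 and 81.0% for H4. For 14 members it was under 20%, 8 of them H2A genes, while 7 members were unique throughout. The H2A copies H2ac18 and H2ac19 have identical coding sequences, and the tables give all their counts to H2ac19 (28 to 55 per library). Every 100-base stretch of H3c14, the H3 gene at 0 counts, also occurs in the model Gm20634. This model covers H3c14 and most of H2ac18 on the same strand, so the same bases are annotated again. Gm20634 had 0 counts too. Gene models also overlap each other: 26 members share bases with another annotated gene, 23 of them on the opposite strand, and 19 with an annotated miRNA gene. Where the overlap is on opposite strands, reads can be told apart only by strand, and the strand setting of the counting is not given. Some overlaps are on the same strand, such as H1f4 with H2bc6, where strand does not help.

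After 4 h of dTAG-13, no histone gene passed the test of the main fit in either line. In DHX35-dTAG cells, 0 of 67 members had an adjusted p under 0.05, where 0% of all genes did (0 of 16371, edgeR's quasi-likelihood test, Benjamini-Hochberg). At an unadjusted p under 0.05 there were 4 members (5.97%), all with positive values, and 882 genes (5.39%), and DESeq2 called 0 members and 0.00306% of all genes (1 of 32642). Without an expression filter, however, edgeR called 15 of 68 members and 1.06% of all genes. The members had a median log2 fold change of 0.07, against −0.01 for all genes, and ranged from −0.87 to 1.06. By type, the medians were −0.32 for H1, 0.05 for H2A, 0.39 for H2B, 0.07 for H3 and −0.01 for H4. Without replicate 1 in DMSO they were 0.10, 0.03, 0.09, 0.06 and 0.09, so the values for H1 and H2B rested on that library, and edgeR called 0 members and 0.0117% of all genes, with 6 members (8.96%) at an unadjusted p under 0.05, where 783 of 17037 genes were (4.60%). Leaving out replicate 2 in DMSO instead, which makes replicate 1 the sole DMSO library of this line, gave 36 called members of 67, while 28.8% of all genes were called. Among them, the called H2B genes were all higher and the called H1 genes all lower in dTAG-13, while called H2A, H3 and H4 genes went both ways.

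Single members showed the same dependence. H2bc15 was at 15.5 and 28.7 CPM in DMSO and at 38.0 and 37.8 in dTAG-13 in the DHX35-dTAG line. Its log2 fold change was 0.77 (standard error 0.23, adjusted p = 0.715), or 0.40 without replicate 1. Hist1h2bq, a member at 0.369 to 2.39 CPM in all libraries, had 1.06 (standard error 0.52, adjusted p = 0.715) with all libraries and 0.38 without replicate 1. The lowest values were those of H2ac13, −0.87 (standard error 0.40), and H1f1, −0.58 (standard error 0.30), which were −0.03 and 0.15 without that replicate. In the main fit none of these 4 genes passed, whereas without an expression filter H2bc15 (0.78), H2ac13 (−0.86) and H1f1 (−0.57) were called.

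In GPATCH1-dTAG cells, the values of the members lay closer to 0. Again 0 of 67 members passed, with 0% of all genes called, and 0 members but 486 genes (2.97%) had an unadjusted p under 0.05 in edgeR, while DESeq2 called 0 members and 0% of all genes. Without replicate 1 of DHX35-dTAG in DMSO, the spread of which enters this fit too, edgeR called 0 members and 0.299% of all genes, and 5 members (7.46%) and 1432 genes (8.41%) had an unadjusted p under 0.05. Member values ranged from −0.48 to 0.32 with a median of 0.00, equal to that of all genes. The type medians were 0.04, 0.01, −0.02, 0.01 and 0.00 for H1, H2A, H2B, H3 and H4. Hist1h2ao was at 17.5 and 18.1 CPM in DMSO and at 19.1 and 25.5 in dTAG-13, a log2 fold change of 0.32 (standard error 0.16, adjusted p = 1.00). H2ac13, at 3.04 and 5.92 CPM against 2.35 and 3.96, had the lowest value, −0.48 (standard error 0.59, adjusted p = 1.00). H2bc1 had −0.42 (standard error 0.28) and Hist1h2bq 0.23 (standard error 0.49). With 1 library left out, the value of H2ac13 ranged from −0.92 to 0.03 and so changed sign. That of Hist1h2ao ranged from 0.11 to 0.52 and that of Hist1h2bq from 0.04 to 0.41.

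Whether the lines responded differently was tested in the same fit. It gave 0 members of 67, with 0% of all genes called, and at an unadjusted p under 0.05 it gave 2 members (2.99%), both negative, and 640 genes (3.91%), while DESeq2 called 0 members and 0.0245% of all genes. Without replicate 1 of DHX35-dTAG in DMSO, edgeR called 0 members and 0.0528% of all genes, and 5 members (7.46%) and 892 genes (5.24%) had an unadjusted p under 0.05. The median over the members was −0.13 against 0.00 for all genes, and −0.07 without replicate 1 of DHX35-dTAG in DMSO. H1f1 (0.65, standard error 0.42) and H1f2 (0.64, standard error 0.39) had the highest values, and H2bc6 (−0.89, standard error 0.63) and H2bc15 (−0.85, standard error 0.31) the lowest among members with a mean of at least 1 CPM. All 4 had an adjusted p of 0.862. Without replicate 1 of DHX35-dTAG in DMSO these values were −0.08, −0.03, −0.23 and −0.48. Without replicate 2 of that group, 35 members were called and 20.9% of all genes.

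Summed levels gave the same picture in ratios of group means, which were not tested. From DMSO to dTAG-13 the sum over all members had a log2 ratio of −0.09 in DHX35-dTAG cells (6325 ± 981 CPM to 5928 ± 157, SD, n = 2) and of 0.03 in GPATCH1-dTAG cells (5432 ± 20.6 to 5536 ± 52.9, SD, n = 2). The former was 0.07 without replicate 1 in DMSO. In the DHX35-dTAG line the ratio was −0.38 for H1 and 0.34 for H2B, and without that replicate these ratios were 0.10 and 0.05. In the GPATCH1-dTAG line the ratios were 0.03 for H1, 0.00 for H2A and H2B, and 0.04 for H3 and H4. On plain CPM, which moves the median of all genes by −0.25 and 0.17 in these comparisons, the ratios of the whole family were −0.33 and 0.19.

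Between the lines, the largest differences of the family, in both directions and both conditions, were those of H2A genes. Hist1h2ao, 1 of the core histone H2A genes of the first block on chromosome 13, had 9, 9, 6 and 10 counts in the 4 DHX35-dTAG libraries and 270, 205, 309 and 354 in the 4 GPATCH1-dTAG libraries. Its level was 0.665, 0.578, 0.513, 0.884, 17.5, 18.1, 19.1 and 25.5 CPM, without overlap between the lines. The log2 difference was 4.82 (standard error 0.26, adjusted p = 0.000131, edgeR) in DMSO and 4.98 (standard error 0.26, adjusted p = 0.000108) in dTAG-13. Over the 14 alternative settings that test it, the values were 4.73 to 4.92 and 4.64 to 5.41. It passed the expression filter through the GPATCH1-dTAG libraries, so that the filtered fits could find it only as higher there. In the fit without an expression filter, Hist1h2ao had 4.84 in DMSO and 5.00 in dTAG-13. A filter at 10 counts in each library removes it, since its counts in the DHX35-dTAG line are too low, and so gives no value. Hist1h2ap, a further copy, had 0, 5, 2 and 2 counts in the DHX35-dTAG line and 18, 6, 10 and 16 in the other.

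H2ac15, another H2A gene of the block, was at 42.0, 35.5, 40.6, 39.1, 65.0, 69.2, 66.9 and 62.2 CPM, higher in 4 of 4 GPATCH1-dTAG libraries. Its log2 difference was 0.79 (standard error 0.11, adjusted p = 0.0405) in DMSO and 0.70 (standard error 0.11, adjusted p = 0.0805) in dTAG-13. The DMSO call was lost when any 1 of the 6 libraries outside the DHX35-dTAG DMSO group was left out, with the filter at 10 counts in each library and with only the 4 DMSO libraries, although the value stayed between 0.68 and 0.92 over all settings. H2ac13 went the other way, at 66.7, 25.7, 23.9, 26.4, 3.04, 5.92, 2.35 and 3.96 CPM. Its log2 difference of −3.40 (standard error 0.47, adjusted p = 0.0525) in DMSO and −3.00 (standard error 0.50, adjusted p = 0.112) in dTAG-13 missed the threshold. It passed in 5 of 15 alternatives for each comparison, among them the fits without replicate 1 of DHX35-dTAG in DMSO (−2.58 and −3.01).

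These 4 genes are set together by their differences between the lines, seen beforehand, and not by sequence. Reads can be shared among them and with other H2A genes. Hist1h2ao and Hist1h2ap differ in 0 of 390 coding bases, H2ac13 differs from them in 5 and H2ac15 in 11, while H2ac7 and H2ac11 differ from Hist1h2ao in 3 and from H2ac13 in 4. Only 7.35% of the 100-base stretches of Hist1h2ao, 7.83% of those of Hist1h2ap and 11.6% of those of H2ac13 occur in no other gene model, against 89.5% for H2ac15. The gene model that shares most with H2ac13 is H2ac7 (81.3% of its stretches), and for H2ac15 it is Gm11336 (10.5%). The first 90 coding bases of the 4 genes are printed with capitals at the bases that differ from Hist1h2ao (0 in Hist1h2ap, 2 in H2ac13 and 3 in H2ac15), from GENCODE M21 on GRCm38.
Hist1h2ao, chr13:21810467-21810556, plus strand: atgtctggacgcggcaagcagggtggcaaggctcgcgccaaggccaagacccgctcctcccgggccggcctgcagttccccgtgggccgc
Hist1h2ap, chr13:21833386-21833475, minus strand: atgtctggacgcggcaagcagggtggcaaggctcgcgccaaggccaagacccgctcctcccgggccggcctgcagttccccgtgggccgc
H2ac13, chr13:21716422-21716511, plus strand: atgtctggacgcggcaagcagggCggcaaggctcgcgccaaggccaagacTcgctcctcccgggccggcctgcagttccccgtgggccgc
H2ac15, chr13:21753738-21753827, minus strand: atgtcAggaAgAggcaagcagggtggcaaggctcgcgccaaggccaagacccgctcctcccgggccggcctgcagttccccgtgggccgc
The sum of the 4 genes was 109, 62.2, 65.1, 66.5, 86.7, 93.8, 89.0 and 92.8 CPM, while the other 16 H2A genes summed to 530.3, 422, 471, 429.5, 431, 428, 423 and 437 CPM. Apart from replicate 1 of DHX35-dTAG in DMSO, the sum of the 4 was higher in each GPATCH1-dTAG library, and the sum of the 16 overlapped between the lines. Because the 4 were picked by their differences in these same libraries, this contrast describes the choice and is no test of it. Within the 4, H2ac15 was higher there (62.2 to 69.2 against 35.5 to 42.0 CPM), as were Hist1h2ao and Hist1h2ap together (18.6 to 26.6 against 0.665 to 1.06). H2ac13 was lower (2.35 to 5.92 against 23.9 to 66.7 CPM). The higher sum thus includes the rise of H2ac15 and does not show that the near-identical copies were higher together. The sums therefore do not separate genes by shared sequence. Whether reads moved between copies was not tested, since the tables hold no reads.

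Gene models annotated on the opposite strand of the same genes gave a like split for a pair of copies. Since the strand setting of the counting is not given, their counts may hold reads of either strand. Gm44466, an annotated miRNA gene inside Hist1h2ap on the other strand, had 0, 0, 0 and 2 counts in the DHX35-dTAG line and 66, 52, 58 and 47 in the GPATCH1-dTAG line. Gm19658, placed in the same way inside Hist1h2ao, had 0, 2, 2 and 2 counts against 8, 4, 5 and 11. Inside H2ac13, Gm44367 had 5, 2, 13 and 10 counts against 11, 8, 4 and 9, with overlap between the lines. Inside H2ac15, Gm44454 had 38, 71, 56 and 59 counts against 58, 40, 46 and 62, also with overlap and without the difference of H2ac15. These 4 genes are not members, and they were chosen after their values were seen. Clone, tag and culture all differ between the lines and cannot be told apart.

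**Figure D3:**
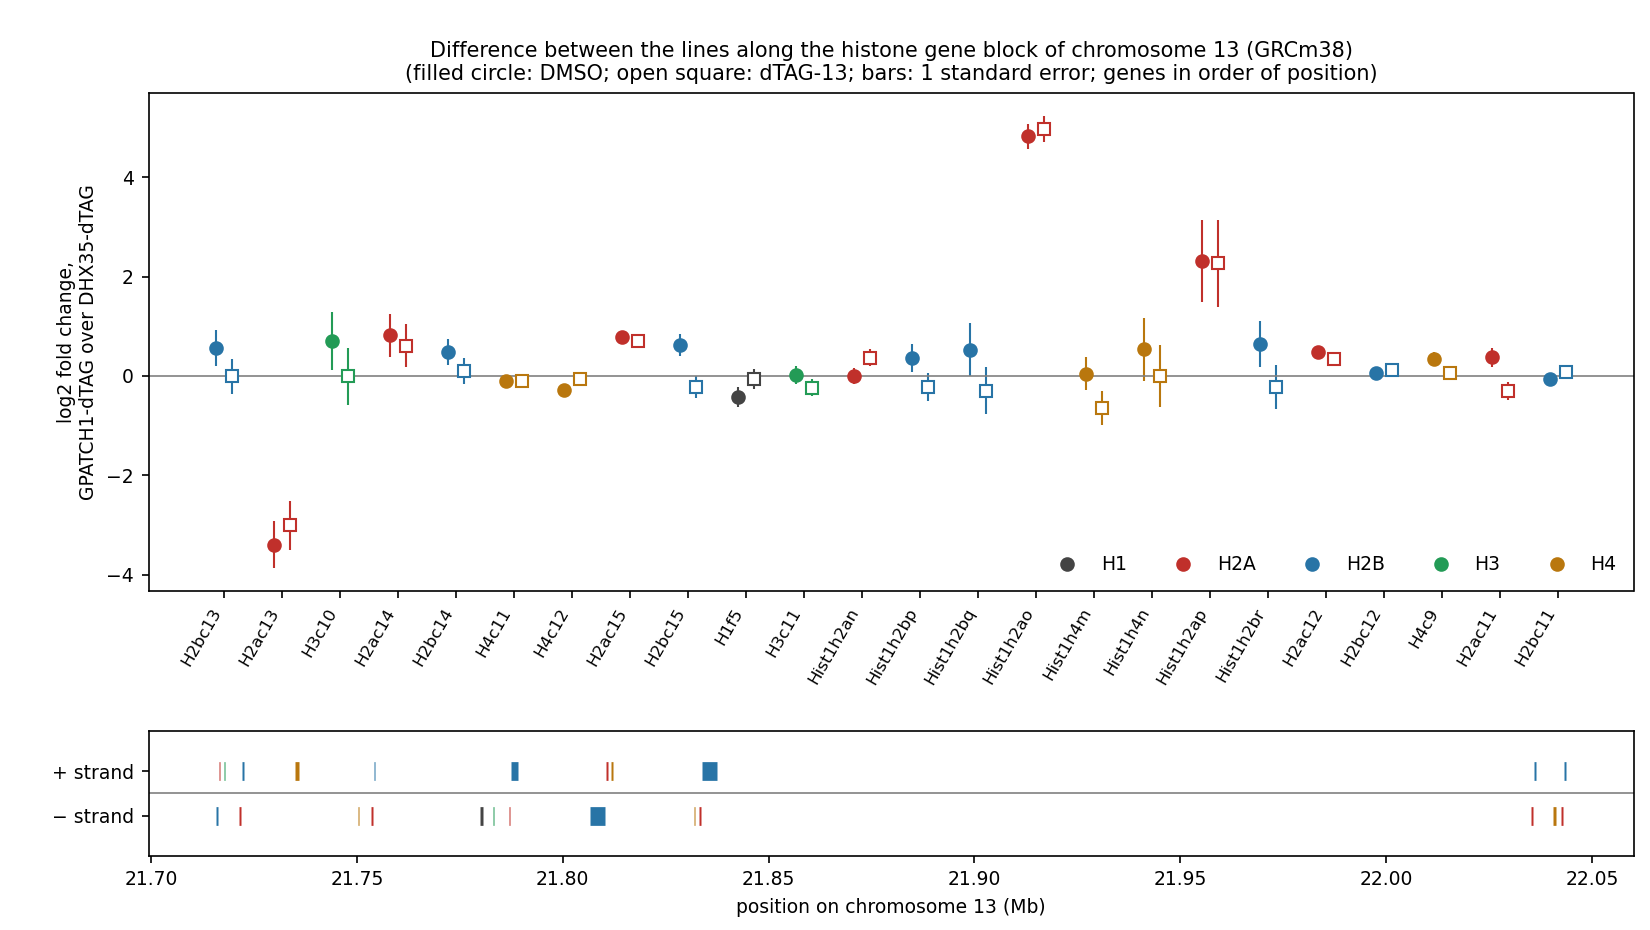
Log2 difference between the lines for the 24 histone genes between 21715763 and 22043676 on chromosome 13, in order of position, in DMSO (filled circles) and in dTAG-13 (open squares), with bars of 1 standard error. The lower panel shows position and strand of the same genes.

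Over the whole family, few members passed between the lines. In DMSO, 2 of 67 members were called (Hist1h2ao and H2ac15, both higher in GPATCH1-dTAG cells), while 0.0916% of all genes were (15 of 16371, edgeR). At an unadjusted p under 0.05 there were 22 members (32.8%), 9 higher and 13 lower, and 2117 genes (12.9%). DESeq2 called 4 of 62 members and 0.335% of genes: H2ac15 (0.80) and Hist1h2ao (4.85) higher, H2ac13 (−3.36) and H4c8 (−0.86) lower. In dTAG-13, Hist1h2ao was the 1 member of 67 called, again with 0.0916% of all genes, and 13 members (19.4%) and 1386 genes (8.47%) had an unadjusted p under 0.05. There DESeq2 called 5 of 66 members and 0.278% of genes, namely H2ac15 (0.71) and Hist1h2ao (5.01) higher, and H1f4 (−0.57), H2ac13 (−2.98) and H2bc9 (−0.98) lower. The members' median was 0.05 in DMSO and −0.05 in dTAG-13, against −0.01 for all genes in both. Without replicate 1 of DHX35-dTAG in DMSO, the members' median in DMSO was −0.02, so its sign rested on that library. Among the 10 symbols that the choice matched as written, 2 were called in DMSO and 1 in dTAG-13. These are H2ac15 and Hist1h2ao, both known from earlier results of these counts. The choice added H2ac15 by name, and Hist1h2ao passed the expression filter through the GPATCH1-dTAG libraries. The calls among the 10 are therefore a description and no support for a difference of the family.

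The number of called members depended on the libraries in the fit. With either of its libraries left out, the DHX35-dTAG DMSO group is a single library, which the fit assumes to vary like the other groups, so calls against it rest on their spread. Without replicate 1 of DHX35-dTAG in DMSO, 7 members were called between the lines in DMSO, 3 higher and 4 lower, and 0.710% of all genes, and 21 members (31.3%) and 1716 genes (10.1%) had an unadjusted p under 0.05. In dTAG-13 the same fit called 14 members, 6 higher and 8 lower, and 3.87% of all genes, and 28 members (41.8%) and 3087 genes (18.1%) had an unadjusted p under 0.05, more than with all libraries. Without replicate 2 of that group, 42 members and 34.3% of all genes were called in DMSO, and 13 members and 3.79% of all genes in dTAG-13. Leaving out any other library left 1 called member in each comparison, Hist1h2ao. A fit on only the 4 dTAG-13 libraries called 10 of 65 members and 2.20% of genes, and on only the 4 DMSO libraries 1 of 64 members and 0.0125% of genes. Both line comparisons share libraries with the dTAG-13 responses above, and their values are therefore set side by side here.

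Other settings of edgeR's test changed these numbers for the members and for all genes. Without an expression filter, 15 of 68 members were called for the DHX35-dTAG response (1.06% of 32642 genes) and 0 for the GPATCH1-dTAG response (0.0643%). Between the lines the same fit called 24 in DMSO (3.02%) and 7 in dTAG-13 (0.484%), and it called 6 for the difference between the responses (0.429%). A filter at 10 counts in each library left 61 members and called 0 of them in DMSO (0.0285% of genes) and 0 in dTAG-13 (0.0285%). With the replicate number as a block, 2 members were called in DMSO (0.0977% of genes) and 1 in dTAG-13 (0.116%).

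In the other types, the members whose TMM-scaled levels did not overlap between the lines were lower in GPATCH1-dTAG cells. H4c8, which encodes the core histone H4, was at 306, 215, 210.3, 231, 149, 135, 156 and 143 CPM, and the lines did not overlap. Its log2 difference was −0.87 (standard error 0.15, adjusted p = 0.124) in DMSO and −0.56 (standard error 0.15, adjusted p = 0.343) in dTAG-13, and it was called in both without replicate 1 (−0.59 and −0.56) and without replicate 2 (−1.09 and −0.56) of DHX35-dTAG in DMSO. H2bc9, an H2B gene, was at 21.4, 33.0, 37.1, 36.0, 18.3, 20.5, 17.5 and 19.2 CPM. It differed by −0.50 (standard error 0.18, adjusted p = 0.354) in DMSO and −1.0 (standard error 0.18, adjusted p = 0.146) in dTAG-13, and it was called in both without replicate 1 of that group (−0.77 and −1.0) but only in dTAG-13 without replicate 2 (−1.0). The linker histone gene H1f4 was at 109, 93.1, 106, 107, 75.6, 78.8, 71.4 and 70.8 CPM. Its difference in dTAG-13 was −0.58 (standard error 0.09, adjusted p = 0.102), and it passed without replicate 1 (−0.58) and without replicate 2 (−0.58) of that group. H3c8, among the highest H3 genes, was at 103 to 111 CPM in the GPATCH1-dTAG line and 128 to 141 in the other, a difference of −0.33 (standard error 0.09, adjusted p = 0.316) in DMSO.

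Some H1 and H2B values between the lines rested on replicate 1 of DHX35-dTAG in DMSO. H1f2 differed by −0.87 (standard error 0.28, adjusted p = 0.341) in DMSO, or −0.20 without that replicate, and by −0.23 (adjusted p = 0.908) in dTAG-13, where it was called lower without replicate 1 (−0.23) and also without replicate 2 (−0.23) of that group. H1f1 differed by −0.65 (standard error 0.30, adjusted p = 0.390) in DMSO and by 0.09 without replicate 1. Without an expression filter both were called lower in DMSO (−0.85 and −0.62). H1f6, at 1.5 to 1.73 CPM in the GPATCH1-dTAG line and 1.95 to 3.03 CPM in the other, differed by −0.91 (standard error 0.26, adjusted p = 0.336) in DMSO and by −0.85 without replicate 1, and it passed in 1 of 15 alternatives. H2bc6 was at 26.6, 102, 119, 98.1, 72.3, 70.4, 63.8 and 65.7 CPM, the lowest value being in replicate 1. In the main fit it was not called, and without an expression filter it was called lower in dTAG-13 alone (−0.72). Without replicate 1 it was called lower in both conditions (−0.51 and −0.75), whereas without replicate 2 of the group it was called higher in DMSO (1.43) and lower in dTAG-13 (−0.75). The model of H2bc6 spans chr13:23583670-23621124 and overlaps H1f4 on the same strand, and 21.7% of the 100-base stretches of H1f4 are shared with it. H3 genes were called in both directions in dTAG-13 without replicate 1 of DHX35-dTAG in DMSO: H3c7 (0.31), H3c6 (0.24) and H3c15 (0.56) were higher and H3c8 (−0.31) lower.

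Without a test, the lines were also compared by overlap of all 4 against 4 libraries. In TMM-scaled CPM, 11 members of 67 were lower in every GPATCH1-dTAG library than in every DHX35-dTAG library (16.4%), while 6.00% of all genes were, and 4 members were higher (5.97%), while 5.63% of all genes were. The lower ones were 4 of 6 H1 genes (H1f2, H1f3, H1f4 and H1f6), 4 of 13 H4 genes (H4c1, H4c4, H4c6 and H4c8), and H2ac13, H2bc9 and H3c8. The 4 higher ones were all H2A genes, H2ac12 (26.5 to 29.4 CPM against 18.8 to 22.3, log2 difference 0.48 with adjusted p = 0.291 in DMSO), H2ac15, Hist1h2ao and Hist1h2ap. Hist1h2ao and Hist1h2ap, with 6 to 10 and 0 to 5 counts in the DHX35-dTAG libraries, passed the expression filter through the GPATCH1-dTAG libraries, so that they could enter this comparison only as higher ones. These numbers depended on the scaling. DESeq2's size factors gave 10 lower (14.9%, against 5.67% of all genes) and 5 higher (7.46%, against 6.05%). Removal of the ribosomal genes gave 11 lower (16.4%, against 5.58%) and 6 higher (8.96%, against 6.21%). Plain CPM gave 4 lower (5.97%, against 1.91%) and 4 higher (5.97%, against 1.49%), so that on plain CPM neither direction was the more frequent. The share of lower members was above that of all genes under each scaling. No such reading is made of the higher members, since Hist1h2ao and Hist1h2ap could enter only among them.

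By type, the median log2 difference between the lines in DMSO was −0.53 for H1, 0.37 for H2A, 0.16 for H2B, 0.05 for H3 and −0.17 for H4. Without replicate 1 of DHX35-dTAG in DMSO these medians were −0.18, 0.13, 0.00, 0.08 and −0.10, while the median of all genes was −0.01 with that replicate and 0.00 without it. In dTAG-13, where that library is not compared, they were −0.21 for H1, −0.01 for H2A, −0.14 for H2B, −0.01 for H3 and −0.11 for H4. H1 and H4 thus had negative medians in each of these settings, all of them under TMM scaling. On plain CPM in dTAG-13, H1 summed to 1732 and 1574 CPM in GPATCH1-dTAG cells and to 1733 and 1426 in DHX35-dTAG cells. H4 summed to 1584 and 1530 CPM against 1576 and 1393. There the group means of both sums were not lower in GPATCH1-dTAG cells. Log2 ratios of the summed CPM in DMSO were −0.57 for H1, −0.11 for H2A, 0.20 for H2B and 0.10 for H3, and without that replicate −0.08, 0.10, −0.09 and 0.07, so the sign for H2A and H2B rested on it. In dTAG-13 the ratios were −0.15, 0.01, −0.14 and 0.04.

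The H4 sum was 1403 to 1472 CPM in the GPATCH1-dTAG line and 1560.1 to 1899.8 CPM in the DHX35-dTAG line under TMM scaling, and on plain CPM the lines overlapped (1188 to 1584 against 1393 to 2014). In group means it was 1730.0 ± 240.2 CPM against 1419.8 ± 23.7 in DMSO and 1622 ± 4.79 against 1460.3 ± 16.0 in dTAG-13 (SD, n = 2). The log2 ratio was −0.29 in DMSO, or −0.14 without replicate 1 of DHX35-dTAG in DMSO, and −0.15 in dTAG-13. The sum over the whole family was 5418 to 5574 CPM in the GPATCH1-dTAG line and 5631 to 7018 CPM in the other, again with overlap on plain CPM. Its log2 ratio was −0.22 in DMSO, or −0.05 without that replicate, and −0.10 in dTAG-13. Over only the symbols matched as written, the ratio was positive in both conditions, as given at the end. H1 (1490.3 to 1609 CPM against 1608 to 2879), H2A, H2B and H3 sums overlapped between the lines under each scaling. Plain CPM moves the median of all genes between the lines by −0.19 in DMSO and by 0.21 in dTAG-13, and by 0.40 in the difference between the responses.

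Promoters of the family were read from RefSeq (GRCm38.p6), from 250 bases before to 50 after the start, which matched 62 of 70 members. Neighbouring H2A and H2B genes often start back to back, so that their windows overlap. The letters CCAAT, on either strand, occurred in 53 of 62 (85.5%), against 37.4% of 32851 promoters, and in all 50 of the H1, H2A, H2B and H3 promoters but in 3 of 12 H4 promoters. TATAAA occurred in 35 (56.5%), against 13.6% of all promoters. ATTTGCAT, the octamer of H2B promoters, occurred in 13 (21%), in 7 of 18 H2A and 6 of 16 H2B promoters and in no H1, H3 or H4 promoter, against 1.74% of all. The 120 bases before the start are printed for Hist1h2ao, H2ac15 and H2ac13, with CCAAT or its reverse complement ATTGG in capitals. A match is a description of the letters and not of binding.
Hist1h2ao, chr13:21810247-21810366, plus strand: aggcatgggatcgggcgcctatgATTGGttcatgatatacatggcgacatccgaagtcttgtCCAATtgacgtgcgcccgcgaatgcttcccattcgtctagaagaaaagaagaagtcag
H2ac15, chr13:21753913-21754032, minus strand: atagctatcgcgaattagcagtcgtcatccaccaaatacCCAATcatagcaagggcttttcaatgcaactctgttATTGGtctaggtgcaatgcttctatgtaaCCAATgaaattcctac
H2ac13, chr13:21716292-21716411, plus strand: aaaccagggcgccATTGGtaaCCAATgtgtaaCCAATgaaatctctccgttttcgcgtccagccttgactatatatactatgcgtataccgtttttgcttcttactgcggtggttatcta

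Genes that act on histone mRNAs were taken from a list of 27, all of which were tested. They summed to between 2982 and 3089.9 CPM, led by Nasp, a histone chaperone, at 544 CPM. Slbp, which binds the stem-loop, was at 107, 97.8, 98.2, 104, 92.8, 101, 94.7 and 104 CPM. Npat, an activator of histone transcription, was at 65.1, 97.7, 87.5, 105, 102, 106, 95.6 and 102 CPM, and Casp8ap2, which takes part in 3′ end processing, at 85.4, 109, 96.4, 116, 112, 111, 107 and 117 CPM. Both were lowest in replicate 1 of DHX35-dTAG in DMSO. Lsm10 and Lsm11, of the U7 particle that trims the 3′ end, were at 4.29 to 7.78 and 11.3 to 20.2 CPM, and Eri1, an exonuclease of histone mRNAs, at 49.5 to 59.3 CPM. Medians over the 27 were 0.05 and −0.02 for the responses of the DHX35-dTAG and GPATCH1-dTAG lines, 0.08 and −0.01 between the lines in DMSO and dTAG-13, and −0.06 for the difference between the responses.

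The 25 S phase genes summed to 5665 to 6279 CPM, led by Mcm5 at 591 CPM, and the 16 G2 and M phase genes to 2919.9 CPM in replicate 1 of DHX35-dTAG in DMSO and 3139 to 3435 CPM in the other libraries, led by Top2a at 644 CPM. Histone variant genes outside the family (12 genes, 11 tested) summed to 2759 CPM in that replicate and 2204 to 2309 CPM in the others, led by H2ax at 601 CPM. H2ax itself was at 791 CPM in that replicate and 543 to 608 CPM in the others. Over all 11 lists, markers of cells included, 0 of 104 genes tested were called in any of the 5 comparisons by edgeR, and 0 by DESeq2. At an unadjusted p under 0.05 there were 2 and 1 for the responses of the DHX35-dTAG and GPATCH1-dTAG lines (1.92% and 0.962%, against 5.39% and 2.97% of all genes), 11 and 8 between the lines in DMSO and dTAG-13 (10.6% and 7.69%, against 12.9% and 8.47%), and 2 for the difference between the responses (1.92%, against 3.91%). Without replicate 1 of DHX35-dTAG in DMSO, 6 (5.77%) were called between the lines in dTAG-13, where 3.87% of all genes were: Ncbp1 (0.23) and Pole (0.31) higher, and Sox2 (−0.23), Utf1 (−0.49), H1f0 (−0.46) and H1f10 (−0.58) lower in GPATCH1-dTAG cells. H1f0 and H1f10 are linker histone variants that are made outside S phase. Without replicate 2 of that group, 45 (43.3%) were called for the response of the DHX35-dTAG line, 49 and 6 (47.1% and 5.77%) between the lines in DMSO and dTAG-13, and 32 (30.8%) for the difference between the responses, against 28.8%, 34.3%, 3.79% and 20.9% of all genes.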

How the data were processed

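RNA was measured in 8 libraries of mouse embryonic stem cells. The authors deposited raw counts (unit: counts) per gene symbol, 1 table per library, after FastQC 0.11.9, Trim Galore 0.6.6 and STAR 2.7.5c. The counting program, annotation and strand setting are not given in the sources used here. Groups followed the labels. From the counts, edgeR 4.0.16 in R 4.3.3 was run with TMM scaling, filterByExpr on the 4 groups (16371 genes kept), 1 term per group, glmQLFit and glmQLFTest, and Benjamini-Hochberg adjustment with a threshold of 0.05. A standard error is the size of the log2 fold change over the root of its F statistic. The common dispersion of 0.0125 corresponds to 11.2% variation between replicates. Sums and medians over members were not tested for differences between groups. Sequences came from GENCODE M21 transcripts (GRCm38) and RefSeq promoters (GRCm38.p6).

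Named genes were the 3 members of each type with the highest CPM per kilobase, every called member, Hist1h2ao and H2ac15, and per comparison the 2 highest and 2 lowest log2 fold changes among members with a mean of at least 1 CPM, 23 in all. The members and lists were chosen with earlier results of these data known. The lists were markers of pluripotent, feeder, endoderm, mesoderm, neural, 2-cell-like and germ line cells, histone mRNA factors, histone variant genes outside the family, S phase genes, and G2 and M phase genes.

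Alternatives were DESeq2 1.42.0, its size factors within edgeR, a fit on every gene with at least 1 count, a filter at 10 counts in each library, the replicate number as a block, a fit on the 4 libraries of a comparison alone, removal of the ribosomal genes Gm23935 and CT010467.1, and each library left out in turn. For sums they were plain CPM, DESeq2's size factors, and other choices of members. Sums without pseudogenes or with only the 10 symbols matched as written were chosen after seeing the data. The fits without replicate 1 of DHX35-dTAG in DMSO were given a place beside the counts after seeing the data. Spike-in reads are not in the tables and were not used. The libraries of each group were not duplicates of each other, as chi-square per gene between them was 39.5, 34.9, 132 and 5.32 in the order of the groups, where sampling noise gives 1. These means include the ribosomal genes, which took 4.23% and 20.9% of the counts in the GPATCH1-dTAG DMSO libraries. They therefore do not rank the groups by how well replicates agree in other genes. The steps were tested on simulated data for the response of the DHX35-dTAG line. Of 200 genes changed by 0.5 in log2, 1 was called, with 2 others. Of 200 changed by 1, 127 were called, with 12 others.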

Additional observations from a re-analysis of the deposited data

Results flagged for a closer look

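Of 6 sums of histone CPM examined over the 8 libraries, 5 had replicate 1 of DHX35-dTAG in DMSO as an extreme value past Dixon's 95% limit. Chance passes this limit about 1 time in 20 for a single sum over libraries of 1 group. Here the family sum holds the other sums, the libraries come from 4 groups, and this library had been seen to stand apart. The gaps therefore describe it and are not a further test. The gap is the distance to the nearest value as a share of the range. The sum over all members was 7018 CPM (gap 0.612 of the range), that of H1 2879 CPM (0.792), that of H2A 639.6 CPM (0.665), that of H2B 596 CPM (0.670, the lowest value) and that of H4 1899.8 CPM (0.552). For H3 the gap of 0.324 did not pass.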

How the results depend on the processing

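Without an expression filter the numbers of called histone genes were higher (15 for the DHX35-dTAG response, 24 and 7 between the lines in DMSO and dTAG-13, 6 for the difference between the responses), with 1.06%, 3.02%, 0.484% and 0.429% of all genes called. With a filter at 10 counts in each library, which removes Hist1h2ao from the test, 0 and 0 were called between the lines (0.0285% and 0.0285% of all genes), with only the 4 libraries compared 1 and 10 (0.0125% and 2.20%), and by DESeq2 4 and 5 (0.335% and 0.278%). With each library left out in turn, the number ranged from 0 to 36 for the DHX35-dTAG response, from 1 to 42 and from 1 to 14 between the lines in DMSO and dTAG-13, and from 0 to 35 for the difference between the responses. The highest numbers came without a DHX35-dTAG DMSO library, where the lone library of the group is assumed to vary like the other groups. With the replicate number as a block, the calls were 0, 0, 2, 1 and 0 in the 5 comparisons, and the numbers did not pair the libraries, since correlations of the replicate differences between groups were 0.0372 to 0.230.

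On plain CPM, the log2 ratio of the family sum was −0.33 and 0.19 for the responses, −0.40 and 0.12 between the lines, and 0.52 for the difference between the responses. Over only the symbols matched as written it was 0.038 and 0.13 between the lines in DMSO and dTAG-13. With a library left out it ranged from −0.24 to 0.074 for the DHX35-dTAG response, from −0.37 to −0.052 between the lines in DMSO, and from −0.047 to 0.27 for the difference between the responses. Directions turned with a library left out for H1f1 (−0.65 with all libraries, 0.09 without replicate 1 of DHX35-dTAG in DMSO) and H2bc6 (−0.51 without replicate 1, 1.43 without replicate 2 of that group) between the lines in DMSO, and, among the named genes in the comparison that names them, for H1f1 (−1.06 to 0.15) in the DHX35-dTAG response, H2ac13 (−0.92 to 0.032) in the GPATCH1-dTAG response, and H1f1 (−0.081 to 1.13) and H1f2 (−0.029 to 1.08) in the difference between the responses. With 2 libraries a group, spike-in reads unused and copies that share reads, small changes of single members were not resolved.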
